A study of Mus musculus with 11 samples.

Results

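The genes described here were the 38 core genes of macroautophagy, the process in which a double membrane closes around cytoplasm and delivers it to lysosomes. They were chosen by name, as genes of a process that mTORC1 restrains, and were matched by symbol to 38 of the 50686 genes counted. No measured value entered the rule of choice, but earlier results of these data were known when it was made. Macroautophagy is set off when the ULK1 kinase complex is released from inhibition by mTORC1, which phosphorylates ULK1 and ATG13. A lipid kinase complex around BECN1 and PIK3C3 then marks the growing membrane, and a pair of ubiquitin-like conjugation systems attach the small proteins of the ATG8 family, LC3 and GABARAP, to its lipids. Rheb1, the GTPase removed in these mice, is a direct activator of mTORC1. Much of the control over autophagy acts on proteins and not on RNA, so transcript levels are not a measure of autophagic flux.

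RNA-seq was available for 11 libraries, each from 1 mouse. GL261 cells, a mouse glioma line, were injected into the brain of C57BL/6 mice at 6 weeks of age, and samples were taken 3 weeks later. Bulk tumours, scraped from slides of fixed and embedded tissue, gave 3 libraries of Rheb1 fl/fl mice (mice 35, 38 and 110) and 3 of Cx3cr1-Rheb1 Δ/Δ mice (mice 26, 36 and 37). Tumour-associated microglia (TAM-MG), sorted live as CD11b+ CD45low cells, gave 2 Rheb1 fl/fl libraries (mice 74 and 78) and 3 Rheb1 Δ/Δ libraries (mice 54, 63 and 65). The labels call these groups WT and Rheb1 KO. All mice carried floxed Rheb1 and all received tamoxifen 3 weeks before the injection. The Δ/Δ mice also carried CreERT2 inserted into Cx3cr1, which is expressed by microglia and by some macrophages from bone marrow. A loss of Rheb1 and the change at the Cx3cr1 locus therefore cannot be told apart.

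Libraries held 14940787 to 21991348 counts in bulk tumours and 20765767 to 29947977 in TAM-MG, of which the 38 genes took 0.256 to 0.361%. Rheb itself stood at 348, 235 and 329 CPM (counts scaled to the size of the library) in the Rheb1 fl/fl tumours and at 225, 125 and 146 in the Δ/Δ tumours, so that the genotypes did not overlap. In TAM-MG it stood at 86.5 and 164 CPM in fl/fl and at 67.8, 70.0 and 71.2 in Δ/Δ libraries. By edgeR's quasi-likelihood test its log2 fold change was -0.88 ± 0.32 (SE) in bulk (adjusted p = 0.426) and -0.85 ± 0.34 in TAM-MG (adjusted p = 0.552), so neither passed. Only part of the gene is floxed, so counts over the whole gene need not follow its deletion. Rheb was lower in TAM-MG than in bulk (log2 difference -0.69 ± 0.26), and the part of microglia in the bulk difference was not tested. TAM-MG carried all 12 markers of microglia and macrophages, and the summed neuron markers lay at 8.20 to 33.4 CPM there against 1078 to 3151 CPM in bulk. Markers of other cells were not all lower in TAM-MG, with endothelial markers at 59.9 to 128 CPM against 63.4 to 130.3 CPM in bulk, monocyte-derived at 426 to 1566 against 44.4 to 522 and granulocyte at 24.5 to 93.1 against 0.214 to 10.03. Oligodendrocyte markers were lower in TAM-MG, at 225 to 439 against 2289.9 to 2974, and astrocyte markers too, at 184 to 367 against 844 to 3612.

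The first sequence shown belongs to the member with the smallest p in the bulk comparison, Vmp1. It is the 5p mature strand of miR-21a, which lies within the annotated exons of Vmp1 on the same strand (chr11:86584120-86584141, minus strand, GRCm38). Mir21a takes up 2.4% of Vmp1's exon bases. The seed, bases 2 to 8, is in capitals.
mmu-miR-21a-5p: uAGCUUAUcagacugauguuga
The next 3, shown for their motif and not for a genotype difference, are 30-base windows of the members' promoters that hold GTCACGTG, the core of the element bound by TFEB and TFE3, transcription factors of lysosomal and autophagy genes that mTORC1 keeps out of the nucleus. The element is in capitals and the plus strand is printed, at chr6:114670951-114670980 for Atg7, chr14:47568417-47568446 for Atg14 (a gene of the minus strand) and chr16:45158722-45158751 for Atg3. The windows of Atg7 and Atg14 lie inside the annotated genes (chr6:114643097-114860614 and chr14:47540893-47570649), downstream of their outermost start.
Atg7: ccatattggtgGTCACGTGtgcagtaagtg
Atg14: gctcagggccaGTCACGTGggattttgttt
Atg3: ggcctccttttGTCACGTGtcctgggagag
Promoters around the start sites, from RefSeq on GRCm38.p6, were found for 32 of the 38 genes, as 39 promoters. GTCACGTG, searched on both strands, was in 3 of these 39 (7.69%), against 2.25% of all 32851 promoters. The palindrome TCACGTGA was in 1 (2.56%, Atg3) against 0.974%, and CACGTG, which both longer motifs contain, was in 5 (12.8%; Atg3, Atg5, Atg7, Atg14 and Rubcn) against 7.15%. The genotype difference of the 3 genes printed was not of 1 sign in bulk tumours, at a log2 fold change of 0.54 ± 0.50 for Atg7, 1.81 ± 0.59 for Atg14 and -0.43 ± 0.37 for Atg3. In TAM-MG all 3 were negative, at -0.36 ± 0.60, -0.19 ± 0.52 and -0.17 ± 0.31 in the same order. Each was smaller than its SE and overlapped between genotypes.

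The first comparison asked whether transcripts of the autophagy machinery differed when Δ/Δ tumours were set against fl/fl tumours. None of the 38 genes was called, that is, passed an adjusted p of 0.05 with a change of at least 1.5-fold in edgeR's quasi-likelihood test. No gene of the 17028 tested was called either (0%). An unadjusted p under 0.05 was reached by 3 of the 38 genes with higher values in Δ/Δ (7.89%, against 3.82% of all genes) and by 2 with lower values (5.26%, against 5.19%). In 3 (7.89%) every Δ/Δ library lay above every fl/fl library, against 7.82% of all genes, and in 5 (13.2%) below, against 9.23%. The median log2 fold change was 0.16 over the 38 genes and 0.00 over all genes tested, with 22 positive and 16 negative. The 5 genes at an unadjusted p under 0.05 were Atg13, Atg14 and Optn, higher in Δ/Δ, and Vmp1 and Atg4c, lower. By the likelihood ratio test 1 of the 38 was called, Vmp1 (2.25% of all genes), and by DESeq2 4 were called (3.24% of all genes).

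**Figure D1:**
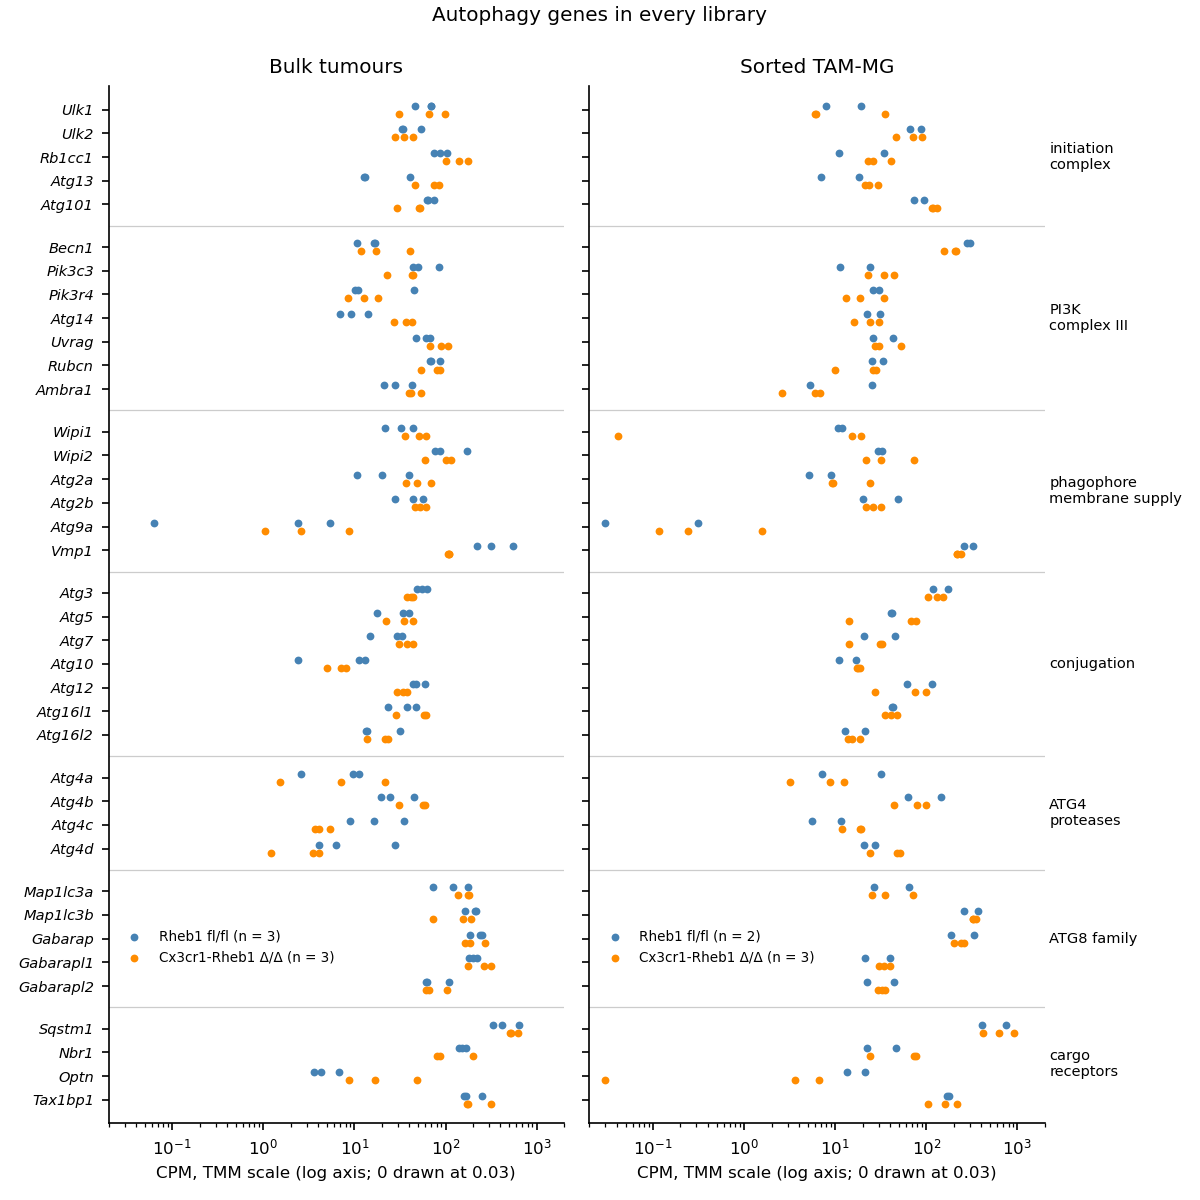
CPM of each of the 38 genes in every library (log axis, scaled by TMM within bulk tumours and within TAM-MG), with 1 point per mouse and genes grouped by role. Vmp1 in bulk tumours shows the 3 Δ/Δ libraries at 107 to 109 CPM and the 3 fl/fl libraries at 219.6 to 553 CPM.

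The smallest p was at Vmp1, which codes for a scramblase of the endoplasmic reticulum needed for the early autophagic membrane. It stood at 313, 219.6 and 553 CPM in the fl/fl tumours and at 109, 108 and 107 CPM in the Δ/Δ tumours. The Δ/Δ values lay close together below the lowest fl/fl value. The log2 fold change was -1.74 ± 0.36 (3.35-fold lower, unadjusted p = 0.000545, adjusted p = 0.154 by edgeR's quasi-likelihood test). It passed by the likelihood ratio test (adjusted p = 0.00212), by DESeq2 (adjusted p = 0.000916), without the filter on low counts (adjusted p = 0.0277, 0.363% of all genes called) and where every library had to hold 10 counts or more (adjusted p = 0.0343, 0.491% called). The difference was negative in 18 of 18 settings, from -2.03 to -1.32. TPM values, which come from Salmon and not from the gene counts, were 78.1, 59.5 and 124 in fl/fl and 23.4, 30.03 and 23.4 in Δ/Δ libraries. They gave a log2 difference of -1.67 on log2(TPM + 1) (adjusted p = 0.218, limma).

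Markers of several cell types were lower in Δ/Δ tumours along with Vmp1. The summed 12 markers of microglia and macrophages stood at 2208 to 3928 CPM in fl/fl and 713 to 1481 CPM in Δ/Δ tumours, with 12 of 12 markers negative and a median log2 fold change of -1.54. The 10 markers of resting microglia were at 212 to 398 against 28.1 to 123 CPM, with 10 of 10 negative. Markers of monocyte-derived cells summed to 183 to 522 against 44.4 to 88.1 CPM, with 4 of 5 negative, 1 positive and Ms4a4c at 0 in the Δ/Δ tumours. Of T cell markers 5 of 5 tested were negative (median log2 fold change -1.56), with sums of 10.45 to 49.9 against 3.796 to 13.2 CPM that overlapped. Erythroid markers (4 of 4 tested negative, median -1.61) and endothelial markers (4 of 6 negative, median -0.71) also overlapped in their sums. So did astrocyte markers (5 of 6 negative, median -0.15) and oligodendrocyte markers (4 of 6 negative, median -0.26). Neuron markers ran the other way, with 7 of 8 positive (median 0.30) and sums that overlapped. In TAM-MG, Vmp1 reached 218 to 323 CPM, so it is a transcript that these cells carry. The part of these shifts in the values of Vmp1 and of the other 37 genes in bulk tumours was not tested. In the RNA of bulk tissue, fewer cells of a type and less RNA per cell cannot be told apart. By flow cytometry the paper reports fewer TAM-MG in Δ/Δ tumours, but more macrophages from bone marrow and more CD4 and CD8 T cells. The markers of T cells and monocyte-derived cells given here thus ran opposite to those cell counts, and the reason was not tested.

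Of the initiation complex, Atg13, the ULK1 partner that mTORC1 phosphorylates, stood at 12.7, 40.6 and 13.2 CPM in fl/fl and 46.6, 84.8 and 73.9 CPM in Δ/Δ tumours. Every Δ/Δ value lay above every fl/fl value, though fl/fl mouse 38 came near the lowest (log2 fold change 1.63 ± 0.55, adjusted p = 0.363 by edgeR). TPM gave the same sign, at 1.23. Atg101, which stabilises ATG13, ran the other way at 62.7, 65.01 and 75.1 CPM against 29.5, 50.6 and 52.9 CPM (log2 fold change -0.61 ± 0.38, adjusted p = 0.685). Thus 2 partners in 1 complex had genotypes apart in opposite directions, but neither was called. Of all genes, 7.82% had every Δ/Δ tumour above and 9.23% every Δ/Δ tumour below. In TAM-MG both genes were higher in every Δ/Δ library. The kinase Ulk1 overlapped fully, at 69.9, 46.1 and 69.6 CPM in fl/fl and 65.1, 99.3 and 30.5 CPM in Δ/Δ tumours (0.07 ± 0.45). Rb1cc1, the scaffold FIP200, stood at 87.3, 75.5 and 104 CPM in fl/fl and 175, 101 and 140.1 CPM in Δ/Δ tumours (0.64 ± 0.32, adjusted p = 0.607). The lowest Δ/Δ value of Rb1cc1 was just under the highest fl/fl value. Ulk2, the second kinase of the complex, had a log2 fold change of -0.17 ± 0.44.

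The lipid kinase complex held the next smallest p. Atg14, the subunit that directs the kinase to sites of autophagosome formation, stood at 14.1, 9.12 and 6.99 CPM in fl/fl and 27.0, 42.5 and 36.5 CPM in Δ/Δ tumours. The genotypes lay clearly apart (log2 fold change 1.81 ± 0.59, adjusted p = 0.338 by edgeR, 0.00632 by DESeq2), and TPM gave 1.33. Uvrag, which takes the place of ATG14 in the endosomal form of the complex, overlapped by a narrow margin (0.58 ± 0.35). Becn1, the complex's scaffold, stood at 16.6, 10.7 and 16.8 CPM in fl/fl and 11.7, 17.3 and 40.8 CPM in Δ/Δ tumours, with the difference resting on Δ/Δ mouse 37. Its log2 fold change was 0.66 ± 0.69 and was -0.018 without Δ/Δ mouse 37. Pik3c3, the catalytic subunit, stood at 84.3, 43.8 and 50.2 CPM in fl/fl and 22.9, 44.0 and 42.8 CPM in Δ/Δ tumours (-0.70 ± 0.45). Only Δ/Δ mouse 26 was well below the fl/fl mice. Pik3r4, its regulatory subunit, had -0.74 ± 0.78, the inhibitor Rubcn -0.02 ± 0.34 and the activator Ambra1 0.56 ± 0.45, all with overlapping genotypes.

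Among the other genes of membrane supply, Wipi2, which reads the lipid mark and recruits ATG16L1, stood at 77.5, 87.7 and 171 CPM in fl/fl and 59.0, 102 and 115 CPM in Δ/Δ tumours (-0.28 ± 0.40). Its genotypes overlapped. Atg2a, a lipid transfer protein, had a log2 fold change of 1.13 ± 0.56 in counts and 0.044 in TPM, and its paralogue Atg2b had 0.30 ± 0.41. Wipi1 had 0.60 ± 0.45. Atg9a, the scramblase of the vesicles that seed the membrane, was barely counted, at 5.45, 2.43 and 0.0624 CPM in fl/fl and 1.06, 8.69 and 2.62 CPM in Δ/Δ tumours. Its TPM was 7.66 to 32.7 in the same 6 tumours. Of its exon bases 32.6% are shared with Ankzf1 and Gm29253, so its counts are uncertain and no direction was read from them.

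The 7 genes of the conjugation systems had a median log2 fold change of -0.01. Atg5, which is joined to ATG12, stood at 39.9, 34.4 and 17.8 CPM in fl/fl and 34.7, 22.1 and 44.0 CPM in Δ/Δ tumours (0.13 ± 0.52). Atg7, the E1-like enzyme of both systems, stood at 14.7, 29.3 and 33.5 CPM against 37.9, 30.6 and 44.1 CPM (0.54 ± 0.50). Both overlapped between genotypes. The E2-like enzyme Atg3 and the ubiquitin-like Atg12 had genotypes apart by small margins, both lower in Δ/Δ, at -0.43 ± 0.37 and -0.59 ± 0.40. Atg16l1, which places the conjugation on the membrane, stood at 37.7, 23.1 and 47.2 CPM in fl/fl and 58.6, 61.7 and 28.4 CPM in Δ/Δ tumours (0.46 ± 0.47), with TPM of the opposite sign (-1.05). Atg10 and Atg16l2 had -0.39 ± 1.03 and -0.01 ± 0.65.

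The ATG4 proteases, which trim ATG8 proteins before conjugation and free them again, had low counts in bulk tumours except for Atg4b. Atg4c stood at 9.06, 16.5 and 34.8 CPM in fl/fl and 3.66, 5.37 and 4.14 CPM in Δ/Δ tumours. The Δ/Δ values lay together and below all fl/fl values (log2 fold change -2.20 ± 0.87, adjusted p = 0.470 by edgeR, 0.0304 by DESeq2), and TPM gave -0.59. Atg4d had -2.13 ± 1.16 in counts, and TPM gave 0.37. Much of the size in counts came from fl/fl mouse 38, at 28.2 CPM. The other fl/fl mice stood at 6.34 and 4.06 CPM and the Δ/Δ mice at 3.52, 4.09 and 1.20 CPM. Atg4a and Atg4b had 0.37 ± 1.14 and 0.72 ± 0.49.

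None of the 5 genes of the ATG8 family was apart between genotypes in counts of bulk tumours. Map1lc3b, which codes for LC3B, stood at 218, 164 and 209 CPM in fl/fl and 155, 189.7 and 73.4 CPM in Δ/Δ tumours (log2 fold change -0.50 ± 0.37, adjusted p = 0.737 by edgeR). Its TPM was 27.6, 36.3 and 28.3 in fl/fl and 66.5, 56.8 and 36.4 in Δ/Δ libraries, a difference of 0.74 in the other direction (adjusted p = 0.533, limma). No direction was therefore read for LC3B. Gabarap stood at 185, 252 and 239.7 CPM in fl/fl and 188, 162 and 273 CPM in Δ/Δ tumours (-0.12 ± 0.30). Map1lc3a, Gabarapl1 and Gabarapl2 had 0.42 ± 0.36, 0.34 ± 0.30 and 0.00 ± 0.38.

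Cargo receptors bind ubiquitinated cargo and LC3 at once. Sqstm1, which codes for p62, stood at 413, 329 and 641 CPM in fl/fl and 509, 629 and 527 CPM in Δ/Δ tumours (log2 fold change 0.27 ± 0.31, adjusted p = 0.859 by edgeR), within the spread of the fl/fl mice. Optn, a receptor for mitochondria and bacteria, stood at 6.84, 4.31 and 3.62 CPM against 16.8, 49.0 and 8.69 CPM (2.33 ± 0.86, adjusted p = 0.430 by edgeR, 0.0465 by DESeq2). Its genotypes were apart in counts, but TPM was 5.69, 3.04 and 1.95 in fl/fl and 0, 11.9 and 0.925 in Δ/Δ libraries, with a difference of -0.56. Nbr1 and Tax1bp1 had -0.33 ± 0.38 and 0.20 ± 0.34.

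**Figure D2:**
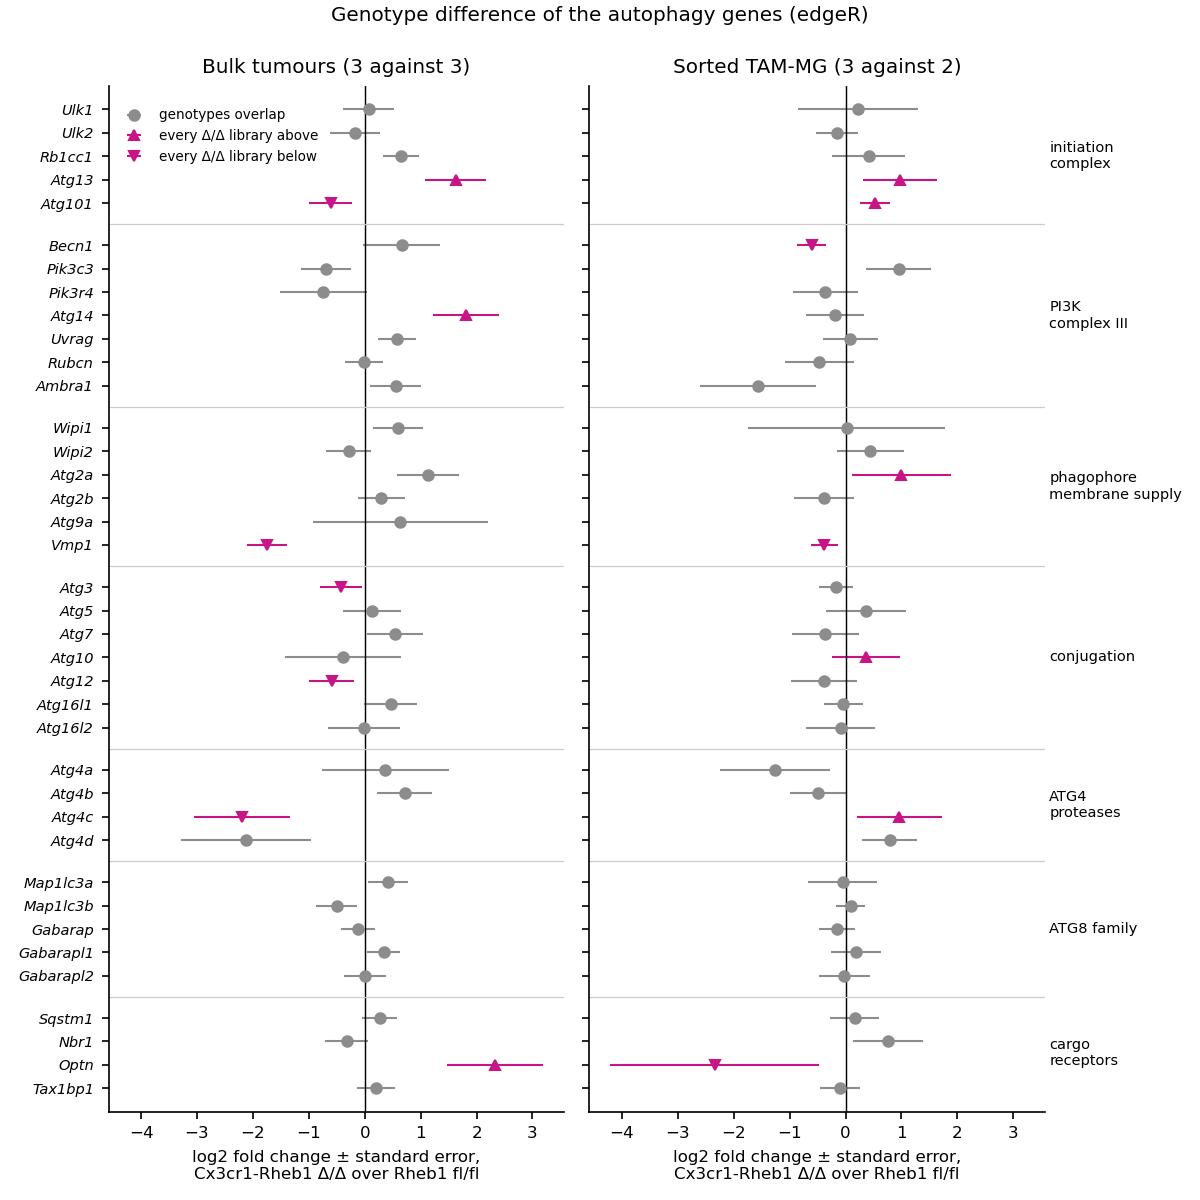
Log2 fold change with standard error of each gene, Cx3cr1-Rheb1 Δ/Δ over Rheb1 fl/fl, by edgeR in bulk tumours and in TAM-MG; triangles mark genes whose genotypes did not overlap. In both panels 8 genes are so marked, and none passed the adjusted threshold; Atg9a was below the filter in TAM-MG.

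The same question was put to sorted TAM-MG, where 37 of the 38 genes passed the filter on low counts and Atg9a, at 0 to 1.56 CPM, did not. None of the 37 was called and none of the 14872 genes tested was (0%), by the quasi-likelihood test. None of the 37 had an unadjusted p under 0.05, against 5.47% of all genes with higher and 2.30% with lower values in Δ/Δ, and none was called by the likelihood ratio test (1.65% of all genes) or by DESeq2 (4.37%). In 5 genes (13.5%) every Δ/Δ library lay above every fl/fl library, against 14.6% of all genes, and in 3 (8.11%) below, against 11.5%. The median log2 fold change was -0.04 (17 positive, 20 negative) against 0.08 over all genes. With 2 mice in the fl/fl group the standard errors were wide, with a median of 0.58 over the 37 genes and 0.90 over all genes. Markers of resting microglia were positive in 10 of 10 (median log2 fold change 0.69, sums of 22826 to 30181 CPM in fl/fl and 28349 to 43499 CPM in Δ/Δ libraries) and those of monocyte-derived cells negative in 4 of 5 (median -0.54), and their part in the values that follow was not tested.

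Becn1 had the smallest p in TAM-MG. It stood at 277 and 304 CPM in fl/fl and 214, 155 and 205 CPM in Δ/Δ libraries, with every Δ/Δ value below both fl/fl values (log2 fold change -0.60 ± 0.26, unadjusted p = 0.0589, adjusted p = 0.552 by edgeR). TPM gave -0.54. Atg101 was next, at 94.7 and 73.5 CPM against 129.5, 114 and 118 CPM, with the Δ/Δ values above (0.52 ± 0.27, adjusted p = 0.623). Pik3c3 stood at 23.9 and 11.3 CPM against 44.2, 23.1 and 34.6 CPM and overlapped (0.95 ± 0.58). Atg4d stood at 20.6 and 27.0 CPM against 51.1, 24.1 and 48.0 CPM and overlapped too (0.79 ± 0.50).

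Several genes with a gap in bulk tumours had small or other differences in TAM-MG. Vmp1 stood at 262 and 323 CPM in fl/fl and 218, 240.2 and 218 CPM in Δ/Δ TAM-MG, below in every Δ/Δ library in counts (log2 fold change -0.38 ± 0.24, adjusted p = 0.742 by edgeR). Its TPM overlapped, at 197 and 157 against 145, 206 and 201. Atg14 stood at 30.8 and 22.5 CPM against 30.3, 15.9 and 24.1 CPM (-0.19 ± 0.52). Atg13 stood at 6.95 and 18.2 CPM against 21.2, 23.4 and 29.2 CPM (0.97 ± 0.66), with every Δ/Δ library above, as in bulk tumours. Optn stood at 13.6 and 21.0 CPM against 0, 3.61 and 6.62 CPM (-2.34 ± 1.87), with every Δ/Δ library below. Atg4c stood at 5.55 and 11.5 CPM against 19.0, 11.7 and 18.9 CPM (0.96 ± 0.76), with every Δ/Δ library above.

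The remaining well-known members overlapped between genotypes in TAM-MG. Ulk1 ranged from 6.07 CPM to 35.5 CPM over the Δ/Δ mice alone, against 19.2 and 7.96 CPM in fl/fl. Rb1cc1 stood at 33.9 and 11.1 CPM against 25.7, 41.4 and 22.7 CPM, and Wipi2 at 29.5 and 32.8 CPM against 73.5, 31.8 and 21.8 CPM. Atg5 stood at 41.9 and 40.8 CPM against 77.2, 68.0 and 14.2 CPM, so Δ/Δ mouse 65 was far below its group. Atg7 stood at 21.0 and 45.5 CPM against 32.5, 14.1 and 30.9 CPM. Atg16l1 was even over all 5 mice, at 42.2 and 42.7 CPM against 34.96, 41.3 and 47.1 CPM (-0.04 ± 0.35).

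Map1lc3b, Gabarap and Sqstm1 overlapped between genotypes in TAM-MG. Map1lc3b stood at 261 and 365 CPM in fl/fl and 327, 323 and 350.0 CPM in Δ/Δ libraries (0.09 ± 0.26), all 3 Δ/Δ values between the fl/fl values. Gabarap stood at 188 and 332 CPM against 241, 259 and 203 CPM (-0.15 ± 0.32), again between them. Sqstm1 stood at 754 and 409 CPM against 915, 625 and 416 CPM (0.16 ± 0.44).

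The remaining 19 members tested in TAM-MG had adjusted p-values of 0.847 or more by edgeR except Ambra1 (-1.57 ± 1.04, adjusted p = 0.764) and Atg4a (-1.26 ± 0.99, adjusted p = 0.830). Ambra1 rested on fl/fl mouse 74, at 25.3 CPM, against 5.32 CPM in mouse 78 and 2.61 to 6.87 CPM in the Δ/Δ mice. Wipi1 stood at 0.0409 CPM in Δ/Δ mouse 65 and at 10.8 to 19.2 CPM in the other 4 mice.

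Whether the genotype difference itself was unequal in TAM-MG and in bulk was put to an interaction test over all 11 libraries. None of the 38 genes was called, against 0.225% of 21342 genes, and 7 had an unadjusted p under 0.05, 5 of them positive (13.2%, against 9.30% of all genes) and 2 negative (5.26%, against 2.93%). They were Vmp1 (1.40 ± 0.50 on the log2 scale, TAM-MG minus bulk, adjusted p = 0.328 by edgeR), Atg4c (3.18 ± 1.18), Atg14 (-1.96 ± 0.80), Atg101 (1.17 ± 0.49), Atg4d (2.95 ± 1.24), Optn (-4.64 ± 2.04) and Pik3c3 (1.69 ± 0.77). By the likelihood ratio test none was called (3.91% of all genes), and by DESeq2 (4.56% of all genes) Atg4c and Atg14 were (adjusted p = 0.0116 and 0.0115). The median was -0.04 over the 38 genes and 0.30 over all genes.

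Counts and TPM were compared because the same reads gave both. The sign of the genotype difference was opposite in 9 of the 38 genes in bulk tumours (23.7%) against 2847 of 12086 genes (23.6%), and in 10 of 37 in TAM-MG (27.0%) against 1365 of 11487 (11.9%). Among them were Atg16l1, Atg4d, Map1lc3b and Optn in bulk tumours, with the values given above, and Atg2b in TAM-MG (-0.38 in counts, 0.39 in TPM). Annotated overlap with other genes touched several members, and the strand setting of the counting is not stated. Becn1 shares 43.9% of its exon bases with Cntd1 on the other strand, Gabarapl1 28.3% with 1700101I11Rik, Atg4d 19.3% with Kri1, Uvrag 17.6% with Gm45187 and Sqstm1 17.3% with Mrnip, so their counts are uncertain.

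**Figure D3:**
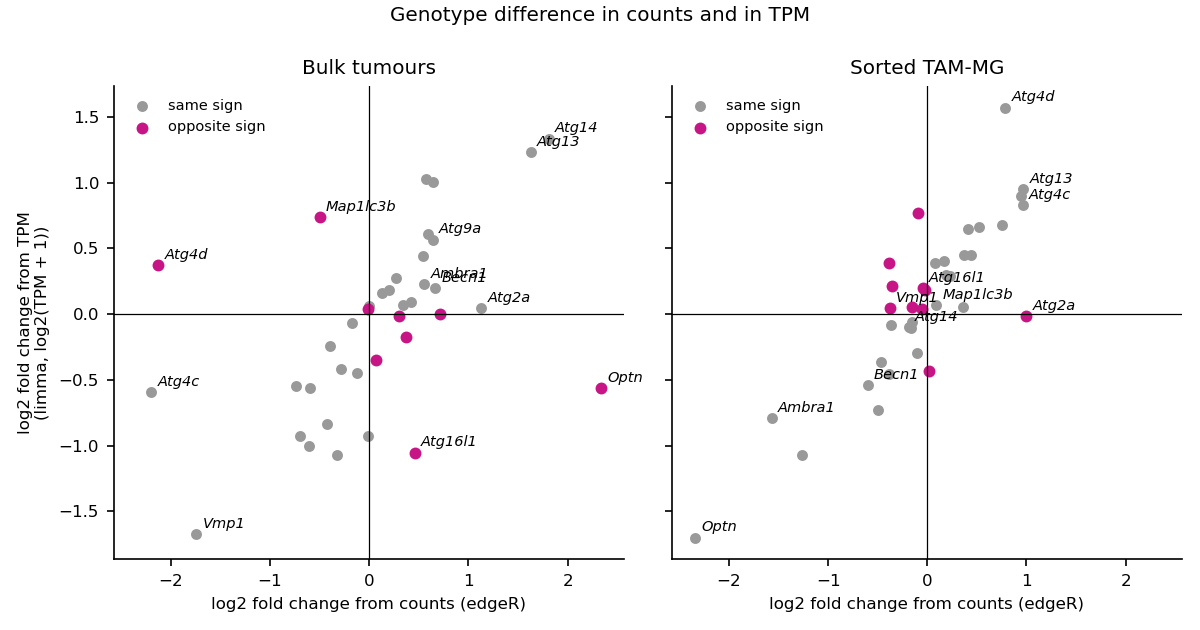
Genotype difference of each gene from counts (x axis, edgeR log2 fold change) and from TPM (y axis, log2(TPM + 1), limma), with genes of opposite sign in colour. There are 9 such genes of 38 in bulk tumours and 10 of 37 in TAM-MG; Vmp1 in bulk tumours lies at -1.74 and -1.67.

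The last comparison set TAM-MG against bulk tumours over both genotypes, to place the autophagy genes in microglia and in the whole tumour. Of the 38 genes 19 (50%) were called, against 52.9% of all genes, with 12 higher in TAM-MG (20.5% of all genes) and 7 lower (32.4%). The median log2 difference was 0.40 over the 38 genes and -0.89 over all genes. Fixed tissue and sorted cells also differed in extraction, and the mitochondrial share was 5.88 to 10.3% of counts in bulk and 1.05 to 2.23% in TAM-MG. The cells and the way they were prepared cannot be told apart. The scaling sets the zero of this scale, since the median of all genes went from -1.45 with library size only to 0.23 with the same mean log CPM in every library.

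Higher in TAM-MG were genes of every step. The CPM values that follow are on 1 scale over all 11 libraries, for bulk as lowest, median and highest and for TAM-MG as mice 74, 78, 54, 63 and 65. Becn1 stood at 8.95, 13.7 and 33.9 CPM in bulk and at 328, 377, 267, 198 and 258 CPM in TAM-MG (log2 difference 4.25 ± 0.35, 19.0-fold, adjusted p = 6.8e-06 by edgeR). In TPM the ratio of the means was 2.05, and the overlap with Cntd1 applies. Atg3 stood at 31.9, 38.7 and 51.4 CPM in bulk and at 206, 146, 162, 196 and 132 CPM in TAM-MG (2.10 ± 0.23, adjusted p = 3.8e-05). Both genes lay in TAM-MG above every bulk library, and the TPM ratio of Atg3 was 8.37.

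In the same way Map1lc3b stood at 61.0, 148 and 179 CPM in bulk and at 309, 453, 409, 412 and 440.2 CPM in TAM-MG (1.54 ± 0.26, adjusted p = 0.000748). Ulk2 stood at 23.6, 28.4 and 44.8 CPM in bulk and at 103, 82.3, 58.7, 114 and 89.5 CPM in TAM-MG (1.51 ± 0.30). Atg101 stood at 24.8, 47.7 and 61.97 CPM in bulk and at 112, 91.2, 162, 145 and 148 CPM in TAM-MG (1.45 ± 0.24). All TAM-MG libraries of these 3 genes lay above all bulk libraries. Map1lc3b, Becn1, Atg3 and Ulk2, all higher in TAM-MG, and Gabarapl1, lower, were called in 21 of 21 settings.

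Under TMM scaling all 7 conjugation genes and all 4 ATG4 proteases had positive differences, the smallest 0.31 for Atg16l2. The sign of small differences depends on the scaling, since the median of the 38 genes was -0.17 with library size only. Of the conjugation genes Atg3, Atg10 (1.59 ± 0.58) and Atg12 (1.48 ± 0.36) were called, and of the proteases Atg4b (1.78 ± 0.37) and Atg4d (2.91 ± 0.62). Atg12 stood at 24.3, 34.0 and 49.5 CPM in bulk and at 73.4, 142, 34.4, 127 and 94.0 CPM in TAM-MG, where Δ/Δ mouse 54 fell within the bulk range. Atg10 stood at 1.96, 6.39 and 10.9 CPM in bulk and at 19.95, 13.5, 22.1, 22.2 and 23.5 CPM in TAM-MG. It was called in 5 of 21 settings although all TAM-MG values were above all bulk values. Atg4b stood at 15.97, 31.7 and 49.5 CPM in bulk and at 174, 78.01, 124, 101 and 56.1 CPM in TAM-MG. Atg4d stood at 1.001, 3.39 and 23.5 CPM in bulk and at 24.4, 33.5, 63.8, 30.8 and 60.4 CPM in TAM-MG. Both were above all bulk libraries in counts, Atg4d by a narrow margin. In TPM the ratio of the means of Atg4d was 1.61, and its ranges overlapped, at 1.12 to 16.2 in bulk and 2.05 to 17.9 in TAM-MG.

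The 3 other genes called higher were Vmp1, Gabarap and Sqstm1, each with a smaller difference. Vmp1 stood at 89.1, 137 and 456 CPM in bulk and at 310.4, 401, 272, 306 and 274 CPM in TAM-MG (0.95 ± 0.25, adjusted p = 0.0085). The fl/fl tumour of mouse 110 was above all TAM-MG libraries. Gabarap stood at 136, 178 and 226.8 CPM in bulk and at 223, 412, 301, 329 and 255 CPM in TAM-MG (0.77 ± 0.24, called in 10 of 21 settings). Sqstm1 stood at 274, 433 and 529 CPM in bulk and at 894, 507, 1143, 797 and 523 CPM in TAM-MG (0.85 ± 0.27, called in 8 of 21 settings). Ranges of Gabarap and Sqstm1 met at their edges.

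Lower in TAM-MG were 7 genes. Gabarapl1, a GABARAP paralogue abundant in brain, stood at 147, 175 and 262 CPM in bulk and at 47.2, 26.5, 49.9, 39.0 and 43.1 CPM in TAM-MG (-2.22 ± 0.27, adjusted p = 7.7e-05). No TAM-MG library came near the bulk range, and TPM gave a log2 ratio of -2.69. Map1lc3a stood at 60.4, 131 and 152 CPM in bulk and at 76.6, 33.4, 89.8, 45.0 and 32.0 CPM in TAM-MG (-1.10 ± 0.37). Neuron markers lay far lower in TAM-MG, as given above, and their part in these 2 genes was not tested.

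The upstream genes Rb1cc1, Ulk1, Ambra1 and Rubcn and the receptor Nbr1 were also called lower. Ulk1 stood at 25.4, 56.1 and 83.2 CPM in bulk and at 22.8, 9.87, 44.4, 7.73 and 7.81 CPM in TAM-MG (-1.55 ± 0.58). Ambra1 stood at 17.5, 33.9 and 45.3 CPM in bulk and at 30.04, 6.60, 8.58, 7.68 and 3.29 CPM in TAM-MG (-1.50 ± 0.53). For each, 1 TAM-MG library fell within the bulk range, that of mouse 54 for Ulk1 and of mouse 74 for Ambra1. Rb1cc1 stood at 62.9, 85.2 and 147 CPM in bulk and at 40.2, 13.8, 32.1, 52.8 and 28.6 CPM in TAM-MG (-1.53 ± 0.35), but its TPM ratio was 1.96 in the other direction, so no direction was read. Rubcn stood at 45.4, 62.4 and 73.0 CPM in bulk and at 30.1, 41.5, 32.2, 12.5 and 35.6 CPM in TAM-MG (-0.997 ± 0.35). Nbr1 stood at 66.4, 120.0 and 168 CPM in bulk and at 54.5, 27.8, 30.2, 92.4 and 96.5 CPM in TAM-MG (-1.05 ± 0.39). Map1lc3a, Rubcn and Nbr1 turned positive with the same mean log CPM in every library, at 0.092, 0.17 and 0.14, and were then not called.

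The 19 genes not called ranged from -2.80 ± 1.55 for Atg9a to 1.13 ± 0.54 for Pik3r4. Of the 19 called, TPM gave the other sign for 1, Rb1cc1. The number called was 7 with the fl/fl libraries alone (34.8% of all genes), 13 with the Δ/Δ libraries alone (40.5%) and 12 without fl/fl TAM-MG mouse 78 (36.5%).

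**Figure D4:**
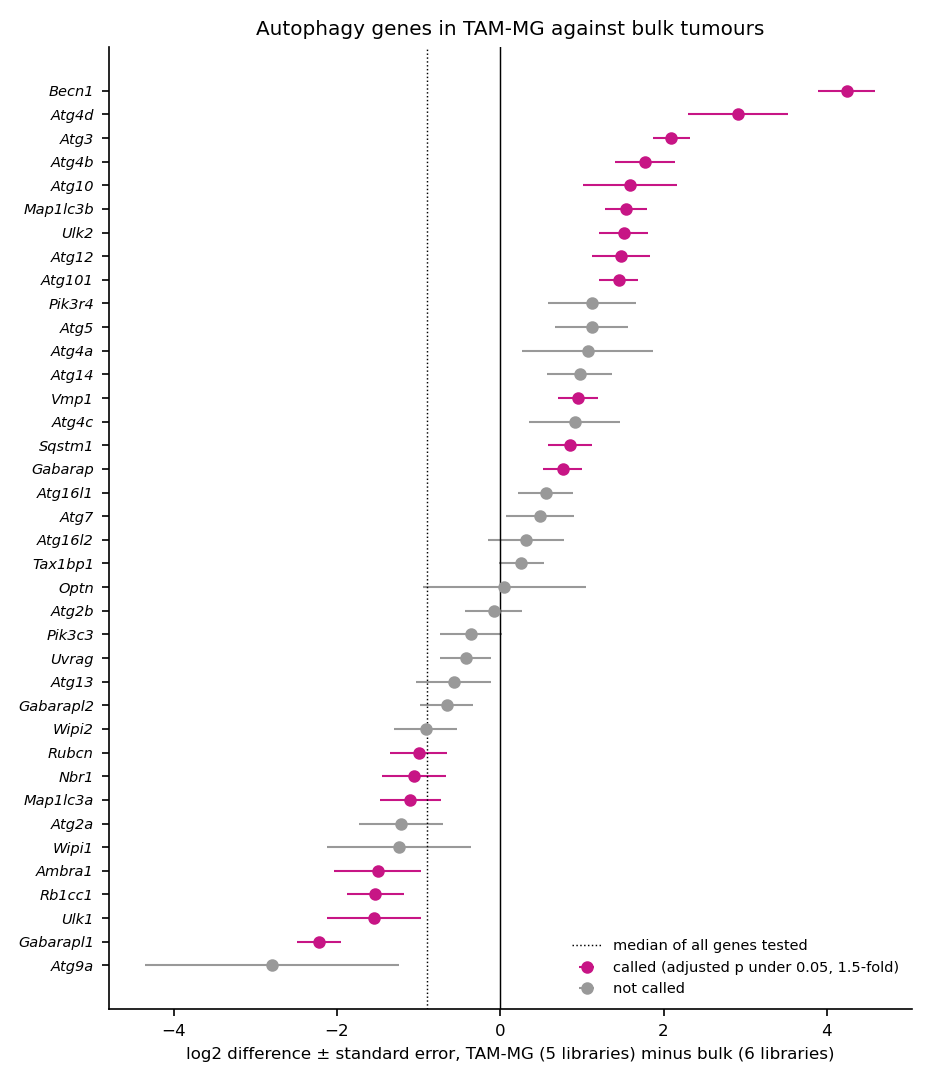
Log2 difference with standard error of each gene, 5 TAM-MG libraries minus 6 bulk libraries (edgeR, TMM), ordered by size, with called genes in colour and the median of all genes, -0.89, dotted. Becn1 lies at 4.25 and Gabarapl1 at -2.22; Map1lc3a, Rubcn and Nbr1 changed sign under another scaling.

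Within the ATG8 family the make-up could be compared per length and within a library, as each gene's share of the family's TPM, which does not depend on the scaling between libraries. Map1lc3b took 41.2% ± 2.92 (SD, n = 5; 37.8 to 45.9%) in TAM-MG and 5.12% ± 1.97 (n = 6; 2.81 to 7.95%) in bulk. Map1lc3a took 9.38% ± 4.38 in TAM-MG and 32.8% ± 3.92 in bulk, and Gabarapl1 2.68% ± 0.776 and 19.0% ± 4.36. For these 3 genes no TAM-MG library overlapped the bulk libraries in TPM. Gabarap took 39.5% ± 4.52 and 36.9% ± 6.91 and overlapped, and Gabarapl2 took 7.25% ± 1.03 and 6.15% ± 0.541. In shares of the family's counts the gap of Map1lc3b was narrower, at 45.3 to 54.1% in TAM-MG and 9.56 to 30.4% in bulk. Map1lc3a overlapped in counts, at 3.41 to 11.2% against 10.3 to 23.1%, and Gabarapl1 did not. By genotype, Map1lc3b took by TPM 4.07, 4.15 and 2.81% in fl/fl tumours and 7.06, 7.95 and 4.70% in Δ/Δ tumours, every Δ/Δ value above every fl/fl value. Its share of the family's counts ran the other way and overlapped, at 30.4, 18.7 and 23.8% in fl/fl and 18.2, 20.9 and 9.56% in Δ/Δ tumours, so no genotype direction was read here either. In TAM-MG it took by TPM 41.2 and 40.9% in fl/fl and 37.8, 40.3 and 45.9% in Δ/Δ libraries, which overlapped. TPM was normalised separately for bulk and TAM-MG, and the bulk TPM covers only 12719 genes.

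**Figure D5:**
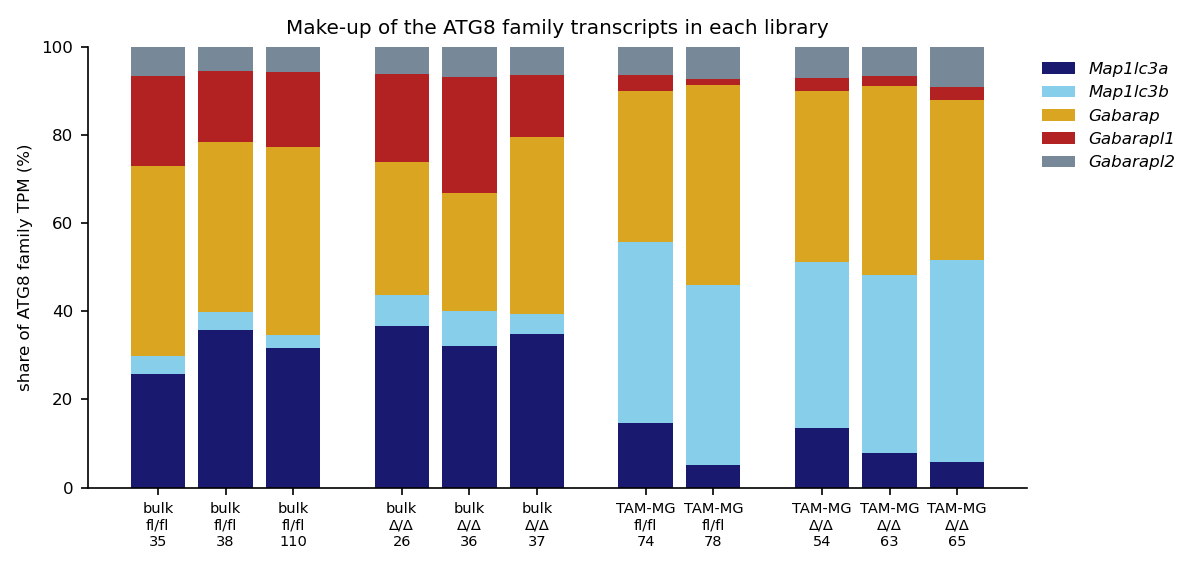
Share of the ATG8 family's TPM taken by each of its 5 genes in each of the 11 libraries, ordered by experiment, genotype and mouse. Map1lc3b takes 37.8 to 45.9% in the TAM-MG libraries and 2.81 to 7.95% in the bulk libraries. Its share of the family's counts, not drawn, was 45.3 to 54.1% and 9.56 to 30.4%.

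Per length, Sqstm1 was the most abundant of the 38 genes in both experiments, with a mean of 414 TPM in TAM-MG and 330.0 TPM in bulk. In TAM-MG it was followed by Map1lc3b (376 TPM), Gabarap (364), Vmp1 (181), Becn1 (163) and Atg101 (115), and in bulk by Gabarap (308 TPM), Map1lc3a (275) and Gabarapl1 (156). The spread of Sqstm1 over mice, 231 to 556 TPM in TAM-MG and 225 to 467 TPM in bulk, spans the means of Map1lc3b and Gabarap in TAM-MG and of Gabarap and Map1lc3a in bulk. The genes were measured in the same libraries, and their difference within a library was not tested, so their order is a description of means only.

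Other genes of the pathway were counted from a list of 44, of which 43 were matched, Vamp7 not. They comprise upstream kinases and factors, accessory proteins, the machinery of fusion with lysosomes and further cargo receptors. In bulk tumours 0 of 43 were called by edgeR's quasi-likelihood test, by the likelihood ratio test and by DESeq2, against 0%, 2.25% and 3.24% of all genes, and the median was 0.049 against 0.00 over all genes. An unadjusted p under 0.05 was reached by 1 with higher values in Δ/Δ (2.33%, against 3.82% of all genes) and by none with lower values (against 5.19%). This was Wdr45b, a WIPI family member, at 61.7, 66.4 and 78.5 CPM in fl/fl and 105, 132 and 127 CPM in Δ/Δ tumours (log2 fold change 0.82 ± 0.30, adjusted p = 0.433). Its genotypes were apart. Prkaa1, a catalytic subunit of AMPK, the kinase that activates ULK1, had -0.86 ± 0.42, and Fyco1, a motor adaptor of autophagosomes, -1.01 ± 0.50.

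In TAM-MG 0 of 42 were called by edgeR's quasi-likelihood or likelihood ratio test, 1 of 43 by DESeq2 (Tfe3), against 0%, 1.65% and 4.37% of all genes. An unadjusted p under 0.05 was reached by 2 with higher values in Δ/Δ (4.76%, against 5.47% of all genes) and by 1 with lower values (2.38%, against 2.30%), and the median was 0.12 against 0.08 over all genes. Tfe3 stood at 43.0 and 10.5 CPM in fl/fl and 108, 127 and 112 CPM in Δ/Δ libraries, far above in every Δ/Δ mouse (2.11 ± 0.63, adjusted p = 0.506). Prkab1, the AMPK regulatory subunit, stood at 64.7 and 61.3 CPM against 100.02, 175 and 126 CPM (1.08 ± 0.33, adjusted p = 0.506). Vps41, of the HOPS tether, had -1.09 ± 0.44. In the interaction 0 of 43 were called by any of the 3 tests, against 0.225%, 3.91% and 4.56% of all genes, and Tfe3 alone had an unadjusted p under 0.05 (2.15 ± 0.87, adjusted p = 0.364 by edgeR; 2.33% positive, against 9.30% of all genes). The next smallest were Retreg1, a receptor for the endoplasmic reticulum (1.22 ± 0.61), and Wdr45b (-0.90 ± 0.49). TAM-MG against bulk gave 15 of 43 called higher (34.9%, against 20.5% of all genes) and 5 called lower (11.6%, against 32.4%), with a median of 0.67 against -0.89 over all genes. The smallest p-values were those of Vamp8 (4.59 ± 0.35), a SNARE of the fusion step, Bnip3 (4.26 ± 0.50), a mitochondrial receptor, and Rab7 (1.63 ± 0.22), the late endosome GTPase.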

How the data were processed

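Bulk GL261 tumours (6 libraries) and sorted TAM-MG (5 libraries) were sequenced as paired-end reads of a full-length cDNA protocol. The deposited counts are raw counts per gene from STAR, and the deposited TPM values come from Salmon, both on GRCm38; tool versions are not given in the sources used here. An unnamed total closing the TAM-MG tables was left out. The 38 genes and all gene lists were chosen with earlier results of these data known.

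Counts were analysed with edgeR 4.0.16 in R 4.3.3 over all genes: filterByExpr (minimum count 10, total 15), TMM scaling and the quasi-likelihood test, with Benjamini-Hochberg adjustment over all genes tested and a call at an adjusted p under 0.05 and 1.5-fold. The SE of a log2 fold change is its size over the square root of F. Bulk and TAM-MG were fitted apart. The interaction and the level used 1 fit of all 11 libraries. The spread shared by all genes (biological coefficient of variation) was 0.801 in bulk, 0.992 in TAM-MG and 1.03 over both. Alternatives were the likelihood ratio test, DESeq2 1.42.0, other scalings and filters, leaving out each mouse, and limma 3.58.1 on log2(TPM + 1) of genes that reached 1 TPM in 2 or more libraries. Scripts were tested on simulated data. Each library is 1 mouse, and p-values set a difference between groups against the spread between these mice.

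Members are described by role. Values in every library are given for 14 of the best known, the 4 of smallest p per comparison and every called member, and values of other members were chosen after they were seen. Of the pathway, the 3 genes of smallest p per comparison are named. Promoter and miRNA sequences are from RefSeq (GRCm38.p6), and coordinates and exon overlaps from a GENCODE annotation of GRCm38. Of 50686 gene identifiers 50376 (99.4%) had a symbol.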

Additional observations from a re-analysis of the deposited data

Results flagged for a closer look

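In 3 genes every Δ/Δ library lay on one side of every fl/fl library in bulk tumours and on the other side in TAM-MG, so the genotype differences pointed in opposite directions. The share of all genes with such opposite sides was not counted, so this number cannot be set against a background. The 3 genes were also picked from the same values that the interaction test uses. The difference of the genotype effect, TAM-MG minus bulk, was 1.17 on the log2 scale for Atg101 (higher in Δ/Δ TAM-MG, lower in Δ/Δ tumours), 3.18 for Atg4c (likewise) and -4.64 for Optn (lower in Δ/Δ TAM-MG, higher in Δ/Δ tumours). By edgeR's interaction test their adjusted p-values were 0.375, 0.334 and 0.393, so none passed. DESeq2 called Atg4c (adjusted p = 0.0116). The counts of Optn reached 0 in 1 TAM-MG library, and its TPM gave the other sign in bulk tumours.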

How the results depend on the processing

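No paired analysis was possible because the replicate numbers are numbers of single mice and the groups share none. In bulk tumours the count of autophagy genes called was 0 and became 1 with the likelihood ratio test, without a filter on low counts and where every library had to hold 10 counts, and 4 with DESeq2; leaving out single mice gave 0. The median log2 fold change of 0.16 became 0.31 with the same mean log CPM in every library and 0.019 (0.022 with a pseudocount of 0.1) in TPM, and 0.044 to 0.16 without single mice. In TAM-MG the median of -0.04 became -0.53 with the same mean log CPM and 0.13 in each of 3 TPM fits, and -0.16 (without Δ/Δ mouse 54) to 0.23 (without fl/fl mouse 74) otherwise, with 0 called throughout. The interaction count of 0 became 2 with DESeq2. Its median of -0.04 became -0.16 with DESeq2 and with its size factors in edgeR, -0.83 with the same mean log CPM, and -0.15 to 0.29 without single mice.

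TAM-MG against bulk gave 19 called genes, 7 with fl/fl libraries alone and 12 (without fl/fl mouse 78) to 19 without single mice. Its median of 0.40 became 0.24 with DESeq2 and with its size factors, -0.17 with library size only, 1.56 with the same mean log CPM, 0.30 where every library had to hold 10 counts, 0.27 with fl/fl and 0.14 with Δ/Δ libraries alone, and 0.14 to 0.47 without single mice. The cause of these shifts was not tested, beyond the scaling's own move of the median of all genes.

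Of 538 values of the named genes under alternatives other than leaving out a mouse, 463 kept direction and side of the threshold, 34 lost and 8 gained the call, and 33 changed sign. In bulk tumours these were Ulk1 with library size only (-0.016), Gabarap with the same mean log CPM (0.018), and, in TPM with a pseudocount of 1 with and without a filter and with a pseudocount of 0.1, Optn (-0.56, -0.56 and -1.64), Ulk1 (-0.35, -0.35 and -0.38), Atg16l1 (-1.05, -1.05 and -1.22) and Map1lc3b (0.74, 0.74 and 0.76). In TAM-MG the same mean log CPM turned Ulk1 (-0.34), Rb1cc1 (-0.14), Wipi2 (-0.069), Atg5 (-0.17), Map1lc3b (-0.38) and Sqstm1 (-0.38), TPM turned Vmp1 (0.047), Atg16l1 (0.20, and 0.21 with a pseudocount of 0.1) and Gabarap (0.055), and 1 fit of all libraries turned Atg16l1 (0.012). Between TAM-MG and bulk the same mean log CPM turned Map1lc3a (0.092), Rubcn (0.17) and Nbr1 (0.14). Leaving out a mouse changed the sign of 15 of 54 gene results. In bulk tumours the values then ran from -0.37 to 0.41 for Ulk1, -0.018 to 0.98 for Becn1, -0.53 to 0.14 for Wipi2, -0.52 to 1.69 for Atg9a, -0.16 to 0.36 for Atg5 and -0.37 to 0.031 for Gabarap. In TAM-MG, where leaving out a fl/fl mouse left 1 that is assumed to vary like the Δ/Δ group, they ran from -1.14 to 1.02 for Ulk1, -0.17 to 1.44 for Rb1cc1, -0.21 to 0.75 for Wipi2, -0.011 to 0.81 for Atg5, -0.80 to 0.31 for Atg7, -0.16 to 0.064 for Atg16l1, -0.12 to 0.37 for Map1lc3b, -0.49 to 0.33 for Gabarap and -0.20 to 0.69 for Sqstm1.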
